A study of Mus musculus with 6 samples.

Results

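The 8 genes described here encode ligands and enzymes that tumour cells are known to use against immune attack. They were chosen by name, with earlier results of these data known: Cd274, Vtcn1, Cd276, Cd47, Cd24a, Pvr, Nt5e and Lgals9. Each symbol matched 1 Ensembl gene, so the set holds 8 of the 54453 genes in the tables. Their transcripts were measured by mRNA sequencing of mouse pancreatic tumour organoids, which are epithelial cultures grown in a gel of extracellular matrix (Matrigel). Organoids of 3 lines, T91, T113 and T118, received a short hairpin RNA (shRNA) against Scrib, number 5523, and organoids of the same 3 lines received an shRNA against Renilla luciferase as the control. All 6 cultures carry the genotype that the labels write as KPF/FC and do not spell out. The labels also call them KPC organoids, KPC being a widely used mouse model of pancreatic cancer. Line T91 is labelled female, passage 10, line T113 male, passage 13, and line T118 male, passage 11, so that sex and passage cannot be told apart from line. Each line gave 1 library per hairpin, and only 1 Scrib hairpin was used.

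Several routes of immune evasion are represented, most of which act on a receptor of another cell. Checkpoint ligands of the B7 family, such as PD-L1, dampen T cells by contact. Anti-phagocytic signals, such as CD47, hold back macrophages, while CD155, CD73 and galectin-9 act through receptors on T and natural killer cells, through adenosine made outside the cell, and through a secreted lectin. Scrib, the knocked-down gene, encodes a polarity scaffold found at the basolateral side of epithelia.

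The estimated counts of the 3 Scrib shRNA libraries summed to between 24035559 and 29817060, against 29910162 to 36235773 in the 3 Renilla shRNA libraries. Scrib was at 29.7, 35.0 and 30.0 CPM (the usual unit of counts scaled by library size, here after TMM scaling) in the Scrib shRNA libraries of T91, T113 and T118, against 177, 157 and 158 CPM in their Renilla shRNA libraries, which edgeR fitted as a log2 fold change of -2.38 (standard error, SE, 0.12, Benjamini-Hochberg adjusted p of 0.00582). The 8 epithelial and ductal markers were all present, with a summed level of 7807 to 10520 unscaled CPM in the Scrib shRNA libraries, against 8410 to 12947 in the Renilla shRNA libraries. Of 10 immune markers, 9 stayed under 1 CPM in every library, Nkg7 at 0 among them, and Lyz2 reached 1.14 CPM in T91 with the Scrib hairpin. Their sum was 0.134 to 2.58 CPM with the Scrib hairpin and 0.248 to 0.600 with the Renilla hairpin. The 7 fibroblast markers summed to 1.41 to 7.49 CPM with the Scrib hairpin, against 1.10 to 1.74 with the Renilla hairpin, and Lum was at 0. Of these, Col1a1 and Col1a2 were abundant enough to be tested, with log2 fold changes of 1.60 (SE 0.48, edgeR adjusted p of 0.712) and 1.19 (SE 0.46, adjusted p of 0.748), and Col1a1 reached 3.53 CPM in T91 with the Scrib hairpin. The highest immune and fibroblast sums were both in the T91 library with the Scrib hairpin, and the part of these cells in the values below was not tested. In bulk RNA of this kind, fewer cells of a type and less RNA per cell cannot be told apart.

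Per kilobase of exon, the ligand genes spread widely. Cd24a stood alone at the top, at 138 ± 10.8 CPM per kilobase (SD, n = 6 libraries), from 124 to 154. Cd47 followed at 18.1 ± 2.34 CPM per kilobase, Lgals9 at 17.1 ± 5.31 and Cd276 at 14.1 ± 1.81, and neighbours among these 3 overlapped. Pvr, at 6.56 ± 1.57, and Vtcn1, at 6.25 ± 4.58 CPM per kilobase, overlapped as well. Cd274 was at 0.127 ± 0.0574 CPM per kilobase and Nt5e at 0.0680 ± 0.0336, far below the rest. The ranges of those 2 genes overlapped, although Cd274 was the higher one in all 6 libraries. Among the 14169 genes that passed the low-count filter, Cd24a lay at percentile 97.7 of level per kilobase, Cd274 at 2.80 and Nt5e at 0.784. Exon length here is the union of all annotated exons, which counts exons that these cells may not use.

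**Figure D1:**
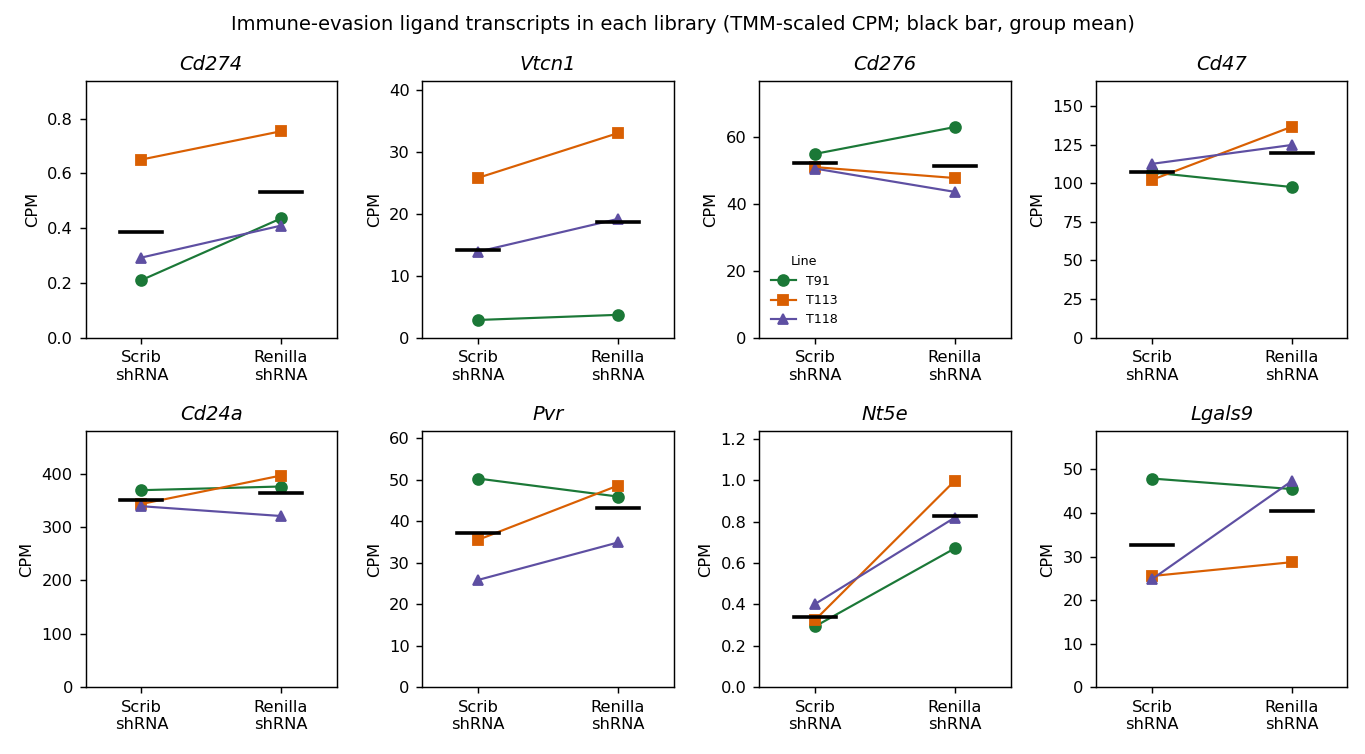
TMM-scaled CPM (vertical axes, each from 0) of the 8 ligand genes with the Scrib shRNA (left) and the Renilla shRNA (right), with the 2 libraries of a line joined and the group means as black bars (n = 3 each). Nt5e is the gene whose groups do not overlap, and for Vtcn1 the 3 lines keep the same order, each lower with the Scrib shRNA.

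None of the 8 genes passed the test of the Scrib hairpin against the Renilla hairpin. All 8 had passed the low-count filter, which asked for about 0.335 unscaled CPM in 3 libraries. The filter was passed by Cd274 in 1 Scrib shRNA and 3 Renilla shRNA libraries, and by Nt5e in 2 and 3, so that both passed through the group where they were higher. Of all 14169 genes, 1 was called, Scrib itself (0.00706%, quasi-likelihood test of edgeR, Benjamini-Hochberg adjusted p under 0.05), so a count of 0 among 8 is near the background. At an unadjusted p under 0.05, 2 of the 8 were below the control, Nt5e and Vtcn1, where 5.06% of all genes were, and 0 were above it, where 1.55% of all genes were. That count depended on the lines: in either direction it was 5 of 8 without T91 (16.7% of all genes), 0 without T113 (2.57%) and 1 without T118 (5.7%). Fitted differences were negative for 7 genes and positive for Cd276, where 51.8% of all genes were negative, with a median log2 fold change of -0.29, against -0.01 over all genes tested. The median of the 8 was -0.15 without T118. Within T91 the median ratio of the 8 was -0.11, within T113 it was -0.28 and within T118 it was -0.42, where the medians of all genes lay at 0.00055, -0.0029 and -0.0021. The 8 epithelial and ductal markers had a median fitted value of -0.18, and within-line medians of 0.14, -0.11 and -0.30 in the same order, and their part in these medians was not tested. The ratio was below 0 in all 3 lines for 3 of the 8, Cd274, Vtcn1 and Nt5e, and for 15.5% of all genes.

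**Figure D2:**
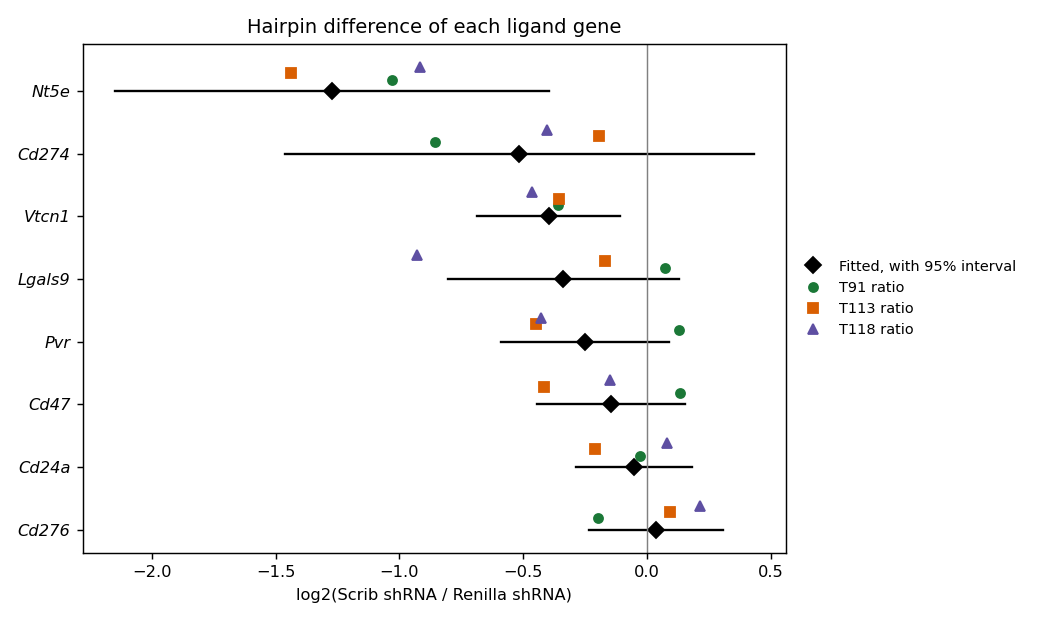
Log2 ratio of the Scrib shRNA over the Renilla shRNA (horizontal axis) for each ligand gene (rows), as fitted over the 3 lines with its 95% interval (black diamonds and bars) and as measured in each line (coloured symbols). Fitted values run from -1.27 for Nt5e to 0.04 for Cd276, and the lines lie farthest apart for Lgals9, from 0.07 in T91 to -0.93 in T118.

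Among the B7 checkpoint ligands, Cd274 was scarce in every library. It encodes PD-L1, the ligand of PD-1 on T cells, and lies at chr19:29367455-29388095 on the plus strand (GRCm38). It held 5, 20 and 8 counts in the Scrib shRNA libraries of T91, T113 and T118, or 0.210, 0.651 and 0.293 CPM, against 13, 28 and 12 counts, or 0.436, 0.754 and 0.410 CPM, in their Renilla shRNA libraries. The Scrib shRNA library was the lower one in each line, and the groups overlapped, with T113 the highest line with either hairpin. Over the 3 lines the fitted difference was -0.52 in log2 (SE 0.39, 95% interval -1.46 to 0.43, edgeR adjusted p of 0.810), and -0.32 without T91. At this depth the counting interval of the ratio included 1 in every line, from 0.135 to 1.44 in T91, 0.461 to 1.59 in T113 and 0.253 to 1.90 in T118 (95%, exact binomial, counting error only). AC119228.1 overlaps Cd274 on the opposite strand, and their reads may not be told apart. Of the distinct 31-base words in the Cd274 transcript, 2.36% also occur in transcripts of other genes, Uty and Mcc among them. The part of shared reads in these low counts was not tested.

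Its promoter is shown as that of the best known interferon-responsive member, with sequence from RefSeq, 250 bases before to 50 after the gene's start, at chr19:29367188-29367487 of GRCm38.p6, plus strand. The start in these windows is the one RefSeq gives, which can differ from the GENCODE start given with each gene. The letters searched, on both strands, were the gamma-activated site TTCNNNGAA, the paired IRF half-site GAAANNGAAA, the hypoxia response core ACGTG, the TEAD core GGAATG and the AP-1 site TGANTCA. Matches are in capitals here and in the promoters that follow. This one holds an ACGTG on its other strand at bases 290 to 294 and none of the other 4 patterns. ACGTG occurs in 19.6% of the 32851 promoters of the same length, and a match is a description of letters only.
Cd274: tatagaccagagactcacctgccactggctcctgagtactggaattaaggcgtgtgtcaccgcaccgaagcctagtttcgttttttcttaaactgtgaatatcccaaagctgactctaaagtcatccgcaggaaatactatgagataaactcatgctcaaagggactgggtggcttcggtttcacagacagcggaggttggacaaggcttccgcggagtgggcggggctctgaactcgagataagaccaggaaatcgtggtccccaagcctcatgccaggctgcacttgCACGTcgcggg

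Vtcn1 was the ligand that set the lines apart. It encodes B7-H4, an inhibitory ligand of T cells best known from epithelial tumours, at chr3:100825459-100896922 on the plus strand. It stood at 2.86, 25.8 and 13.9 CPM in the Scrib shRNA libraries of T91, T113 and T118, against 3.69, 33.0 and 19.1 CPM in their Renilla shRNA libraries. In each line the Scrib shRNA library was the lower one by a similar step, while the groups overlapped widely across lines. T91 had a log2 ratio of -0.36, T113 of -0.35 and T118 of -0.46, and the fitted value was -0.40 (SE 0.12, 95% interval -0.69 to -0.11), or 75.9% of the control level. With an unadjusted p of 0.0150 and an adjusted p of 0.726 it did not pass. The counting interval of the ratio was 0.714 to 0.856 in T113 and 0.634 to 0.827 in T118, both under 1. In T91, which had 68 and 110 counts, it was 0.565 to 1.06. These intervals cover counting error only, not the variation between libraries.

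Between lines, Vtcn1 was 8.97-fold higher in T113 than in T91 (log2 difference 3.17, SE 0.16, edgeR adjusted p of 0.000398), 5.02-fold higher in T118 than in T91 (2.33, 0.16, adjusted p of 0.000575) and lower in T118 than in T113 by a log2 difference of -0.84 (0.14, adjusted p of 0.0180). These are contrasts of 2 libraries against 2 in edgeR's fit over all 6, adjusted over all genes within a contrast. Of all genes, 6.06% passed the first contrast, 11% the second and 10.2% the third. The line held 97.8% of the variance of its log2 CPM, the hairpin 2.14% and the remainder 0.0348%. Its promoter, at chr3:100825209-100825508 on the plus strand, is shown because this is the member that differed between lines. It holds 1 match, to the AP-1 pattern at bases 252 to 258, just past the gene's start, and 7.81% of all promoters hold that pattern.
Vtcn1: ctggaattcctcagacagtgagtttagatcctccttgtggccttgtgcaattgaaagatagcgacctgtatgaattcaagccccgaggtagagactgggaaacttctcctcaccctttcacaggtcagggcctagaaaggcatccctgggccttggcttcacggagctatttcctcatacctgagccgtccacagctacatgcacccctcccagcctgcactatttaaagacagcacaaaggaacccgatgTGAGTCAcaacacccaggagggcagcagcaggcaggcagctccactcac

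Cd276 had a log2 range of 0.53, wider than Cd24a (0.31) and Cd47 (0.48) and narrower than the other ligand genes. It encodes B7-H3, a B7 molecule common on epithelial tumours, at chr9:58524298-58555437 on the minus strand, where Gm10657 overlaps it on the other strand. It was at 54.9, 50.9 and 50.5 CPM in the Scrib shRNA libraries of T91, T113 and T118, against 62.9, 47.7 and 43.5 CPM in their Renilla shRNA libraries. The Scrib shRNA library was the lower one in T91 and the higher one in T113 and T118, and all 3 Scrib shRNA values fell inside the range of the control. The fitted hairpin difference was 0.04 in log2 (SE 0.11, adjusted p of 0.954), and its 95% interval, -0.23 to 0.31, corresponds to 0.851-fold to 1.24-fold.

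Of the anti-phagocytic signals, Cd24a was the most abundant ligand gene and had the smallest range over the 6 libraries, 0.31 on the log2 scale. It encodes CD24, a small glycoprotein whose human counterpart binds Siglec-10 on macrophages, at chr10:43578284-43584265 on the plus strand. Its level was 369, 343 and 339 CPM in the Scrib shRNA libraries of T91, T113 and T118, against 376, 396 and 321 CPM in their Renilla shRNA libraries. The groups overlapped, and T118 was the line in which the Scrib shRNA library was the higher one. EdgeR fitted a log2 fold change of -0.05 (SE 0.10, 95% interval -0.29 to 0.18, adjusted p of 0.923). Of the distinct 31-base words in its transcripts, 4.98% also occur in transcripts of Gm6212 and Gm15352, so a small part of its reads could have been shared with those genes.

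Cd47, the ligand of SIRP-alpha on macrophages, lies at chr16:49800533-49915010 on the plus strand. It was at 107, 102 and 112.5 CPM in the Scrib shRNA libraries of T91, T113 and T118, against 97.5, 136 and 125 CPM in their Renilla shRNA libraries. The 3 Scrib shRNA values lay close together and inside the control range, above the control in T91 and below it in T113 and T118. Over the 3 lines the fitted difference was -0.14 in log2 (SE 0.12, 95% interval -0.45 to 0.16, adjusted p of 0.825), -0.28 without T91 and -0.0043 without T113. The remainder, which is the part of the hairpin difference that varied between lines plus noise, held 45.5% of its variance, more than for any other of the 8 genes.

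Pvr encodes CD155, a nectin-like adhesion protein bound by the inhibitory receptors TIGIT and CD96 and the activating receptor CD226, at chr7:19903578-19921160 on the minus strand. It stood at 50.3, 35.5 and 25.9 CPM in the Scrib shRNA libraries of T91, T113 and T118, against 45.9, 48.6 and 34.9 CPM in their Renilla shRNA libraries. T91 was slightly higher with the Scrib hairpin (log2 ratio 0.13), whereas T113 and T118 were lower (-0.45 and -0.43), and the groups overlapped. The fitted hairpin difference was -0.25 in log2 (SE 0.14, 95% interval -0.59 to 0.09, adjusted p of 0.783), -0.44 without T91, -0.14 without T113 and -0.16 without T118. Between lines it did not pass the F-test over all 3 (adjusted p of 0.0909), with the largest contrast a log2 difference of -0.68 in T118 over T91 (SE 0.17, adjusted p of 0.0551).

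Nt5e was the single ligand gene whose hairpin groups did not overlap, at a very low level. It encodes CD73, the surface enzyme that turns AMP into adenosine, at chr9:88327197-88372092 on the plus strand. It held 7, 10 and 11 counts in the Scrib shRNA libraries of T91, T113 and T118, or 0.294, 0.325 and 0.403 CPM, against 20, 37 and 24 counts, or 0.671, 0.997 and 0.819 CPM, in their Renilla shRNA libraries. Every Scrib shRNA library was below every Renilla shRNA library, which also held for 2.14% of all genes tested. EdgeR fitted a log2 fold change of -1.27 (SE 0.36, 95% interval -2.15 to -0.40), or 41.4% of the control level, and it did not pass (unadjusted p of 0.0116, adjusted p of 0.693). The counting interval of the ratio excluded 1 in T113 (0.145 to 0.670) and included it in T91 (0.157 to 1.08) and T118 (0.217 to 1.04). The hairpin held 89.9% of the variance of its log2 CPM and the line 6.53%. Fibroblasts and endothelial cells are known to express this gene. The summed fibroblast markers were highest in the T91 library with the Scrib hairpin, where Nt5e was at its lowest. The 5 endothelial markers summed to 0.458, 0.134 and 1.57 unscaled CPM in the Scrib shRNA libraries of T91, T113 and T118, against 0.201, 0.331 and 1.23 in their Renilla shRNA libraries. The part of such cells in this difference was not tested.

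The Nt5e promoter, at chr9:88327359-88327658 on the plus strand, is shown as that of the member with the largest fitted hairpin difference. Its RefSeq start lies 412 bases downstream of the GENCODE start, so the window lies wholly inside the GENCODE gene. None of the 5 patterns occurs in these 300 bases, of which 71% are G or C, with 23 CpG dinucleotides.
Nt5e: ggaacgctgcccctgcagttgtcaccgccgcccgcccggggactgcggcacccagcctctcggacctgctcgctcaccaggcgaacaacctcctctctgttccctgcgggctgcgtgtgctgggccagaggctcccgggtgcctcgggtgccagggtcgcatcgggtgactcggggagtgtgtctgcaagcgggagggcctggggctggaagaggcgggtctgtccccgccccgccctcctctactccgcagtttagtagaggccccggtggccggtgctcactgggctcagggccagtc

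Lgals9 showed the widest spread between lines in its hairpin ratio. It encodes galectin-9, a secreted lectin known as a ligand of TIM-3, at chr11:78962974-78984946 on the minus strand. It was at 47.9, 25.5 and 24.8 CPM in the Scrib shRNA libraries of T91, T113 and T118, against 45.5, 28.7 and 47.3 CPM in their Renilla shRNA libraries. T118 with the Scrib hairpin was at 52.5% of its control, while T91 and T113 were at 105% and 89.0% of theirs. Over the 3 lines the fitted difference was -0.34 in log2 (SE 0.19, 95% interval -0.80 to 0.13, adjusted p of 0.783), -0.55 without T91 and -0.05 without T118. With 1 library per hairpin in a line, the difference between lines in this ratio was not tested.

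The Lgals9 promoter, at chr11:78984875-78985174 on the minus strand, is shown for that ratio and because it holds the paired IRF half-site at 2 places, bases 196 to 205 and 266 to 275, both on its other strand. That pattern occurs at least once in 3.44% of all promoters. Of the 8 genes, 6 had a promoter in the RefSeq table, and Cd24a and Pvr are named only. Cd47 had 2 windows, from RefSeq starts 55121 and 55128 bases downstream of its GENCODE start, and each holds ACGTG and none of the other 4 patterns. The Cd276 window, from a start 404 bases downstream, holds none of the 5.
Lgals9: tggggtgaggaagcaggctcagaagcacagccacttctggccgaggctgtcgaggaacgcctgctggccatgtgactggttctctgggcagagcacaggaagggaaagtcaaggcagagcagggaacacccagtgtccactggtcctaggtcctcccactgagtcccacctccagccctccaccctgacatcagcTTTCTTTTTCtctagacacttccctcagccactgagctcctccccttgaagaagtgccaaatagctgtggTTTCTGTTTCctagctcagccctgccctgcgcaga

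Across the 8 genes, the line held more of the variance than the hairpin for 7, and Nt5e was the exception. The line has 2 degrees of freedom and the hairpin 1, and the line held more for 85.8% of all genes tested. Testing both line terms at once, edgeR's F-test called 1 of the 8, Vtcn1 (adjusted p of 0.000399), against 14% of all genes tested, so the share called is near the background. Lgals9 (adjusted p of 0.142), Cd274 (0.230) and Cd276 (0.265) did not pass, nor did Cd24a (0.512), Cd47 (0.533) and Nt5e (0.755) by the same edgeR test. T91 had the highest Cd276, Cd24a, Pvr and Lgals9 means and the lowest Vtcn1 and Cd47 means. At low counts, it also had the lowest Cd274 and Nt5e means. T113 had the highest Vtcn1 mean, at 29.4 CPM over its 2 libraries, and the highest Cd274 mean, at 0.703 CPM.

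**Figure D3:**
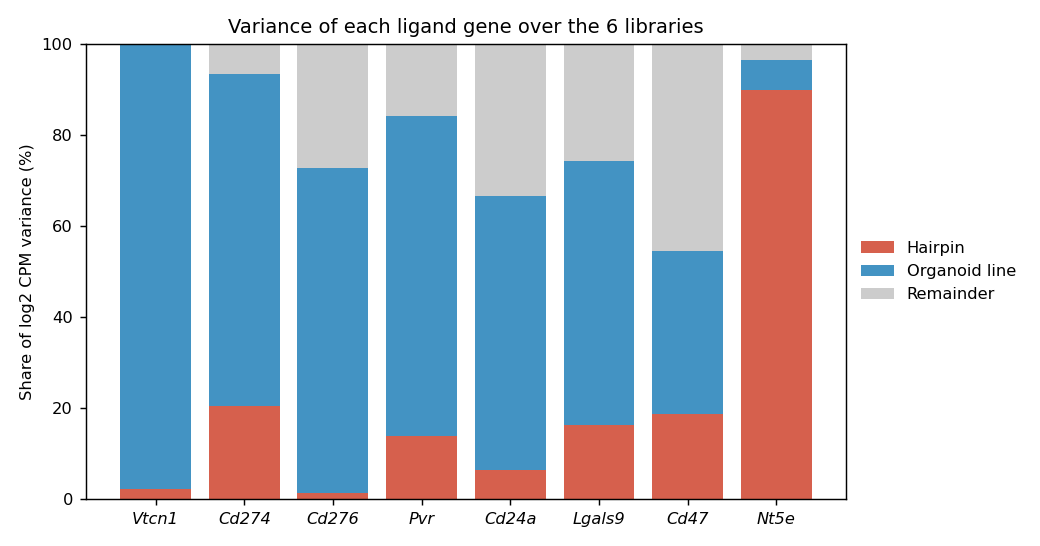
Share of the variance of log2 CPM over the 6 libraries (vertical axis, percent) that went with the hairpin (bottom), the organoid line (middle) and the remainder (top), for each ligand gene. Vtcn1 is nearly all line, at 97.8%, Nt5e is mostly hairpin, at 89.9%, and Cd47 has the largest remainder, at 45.5%.

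The genes around these ligands were read from lists of their families and pathways, and none of their members passed the hairpin test over all genes (0 higher and 0 lower in each list, edgeR, Benjamini-Hochberg adjusted). Of the B7 family, 5 of 8 genes were tested, the ligand genes Cd274, Vtcn1 and Cd276 among them. The median log2 fold change of the 5 was -0.40, which is the value of Vtcn1 itself, against -0.01 over all genes. Without T118 it was -0.24. Pdcd1lg2, which encodes PD-L2, was at 0 in every library. Icosl, the ligand of ICOS, had a log2 fold change of -0.29 (SE 0.17, adjusted p of 0.783), and Vsir, which encodes VISTA, one of -0.46 (0.45, adjusted p of 0.840). All 7 tested nectins and nectin-like genes, Pvr among them, had negative values, against 51.8% of all genes, with a median of -0.17. Without T118, 5 of 7 were negative and the median was -0.11. Nectin1 had a log2 fold change of -0.26 (0.11), Nectin3 of -0.22 (0.15), Cadm1 of -0.17 (0.12) and Nectin2, a further ligand of the TIGIT family, of -0.09 (0.14).

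All 7 tested galectins, Lgals9 among them, had negative values too, again against 51.8% of all genes. Their median ratio was 0.06 in line T91, -0.36 in line T113 and -0.71 in line T118, and their median fitted value was -0.33. Without T118 the median was -0.05 and 5 of 7 were negative, and without T91 it was -0.54. Lgals4, at 1032 CPM, had a log2 fold change of -0.34 (SE 0.15), Lgals2 of -0.33 (0.21), Lgals12 of -0.33 (0.17) and Lgals8 of -0.26 (0.13). Lgals3, at -0.18 in the fit over 3 lines, was called without T91 (log2 fold change -0.58, edgeR adjusted p of 0.0473). That setting called 94 of 14366 genes.

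In the list of extracellular nucleotide and adenosine genes, which includes Nt5e, 12 of 16 were tested, 8 with negative values and 4 with positive ones, and the median was -0.11. It was -0.25 without T91 and -0.0036 without T118. Enpp1, a nucleotide pyrophosphatase that makes AMP from ATP, had a log2 fold change of -0.34 (SE 0.11) and its relative Enpp3 of -1.03 (0.40). The ratio of Enpp3 was 0.12 within T91, at 21 and 24 counts, -0.55 within T113 and -2.01 within T118. The nucleoside transporter genes Slc29a1 and Slc29a2 had values of 0.21 (0.09) and 0.25 (0.15). Entpd1, which encodes CD39, the enzyme upstream of CD73 in most immune settings, averaged 0.0267 CPM and was not tested, and its relative Entpd2 was at 20.3 CPM with a log2 fold change of -0.06 (0.20).

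Of the regulators of Cd274, 15 of 16 were tested, 11 with negative values and 4 with positive ones, and the median was -0.12, or -0.075 without T91. Nfkb1 had a log2 fold change of -0.23 (SE 0.09), Jak2, a kinase of the interferon-gamma receptor, of -0.23 (0.10), Ifngr2, a chain of that receptor, of -0.33 (0.15) and Myc of 0.24 (0.11). Their adjusted p-values were 0.753 to 0.772 by edgeR. The 10 phagocytosis genes, Cd47 and Cd24a among them, had a median of -0.01, or -0.077 without T91, with Lrp1, the receptor of calreticulin, at -1.01 (0.29), Pdia3 at -0.17 (0.10), Calr at -0.07 (0.10) and Mfge8 at 0.06 (0.11). Of 5 NKG2D ligand genes 2 were tested, Raet1e at -0.47 (0.34) and Ulbp1 at 0.15 (0.24).

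In the list of other immune-regulatory genes 15 of 21 were tested, 12 with negative values and 3 with positive ones. The median was -0.29, which is the value of Icosl, and the median ratio was 0.048 within T91, -0.35 within T113 and -0.34 within T118. This list shares Icosl, Vsir, Nectin2, Lgals1 and Lgals3 with the lists above, so it is not a separate set. Ceacam1, which encodes an adhesion protein and a further ligand of TIM-3, had a log2 fold change of -0.83 (SE 0.11, edgeR adjusted p of 0.327), with a ratio of -0.61 within T91, -0.87 within T113 and -1.01 within T118. It was called by edgeR without T91 (adjusted p of 0.00552), by edgeR without the low-count filter (0.00110) and by DESeq2 (1.00e-07). In the same order, these settings called 94 of 14366, 64 of 27467 and 63 of 14169 genes. Ceacam1 was not called by limma-voom, without T113 or without T118. Cd55, a brake on complement, had a log2 fold change of -0.39 (0.14), Ptgs2, the inducible enzyme of prostaglandin synthesis, of -0.49 (0.24) and Cd200, an inhibitory ligand at 0.574 CPM, of -1.31 (0.42).

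**Figure D4:**
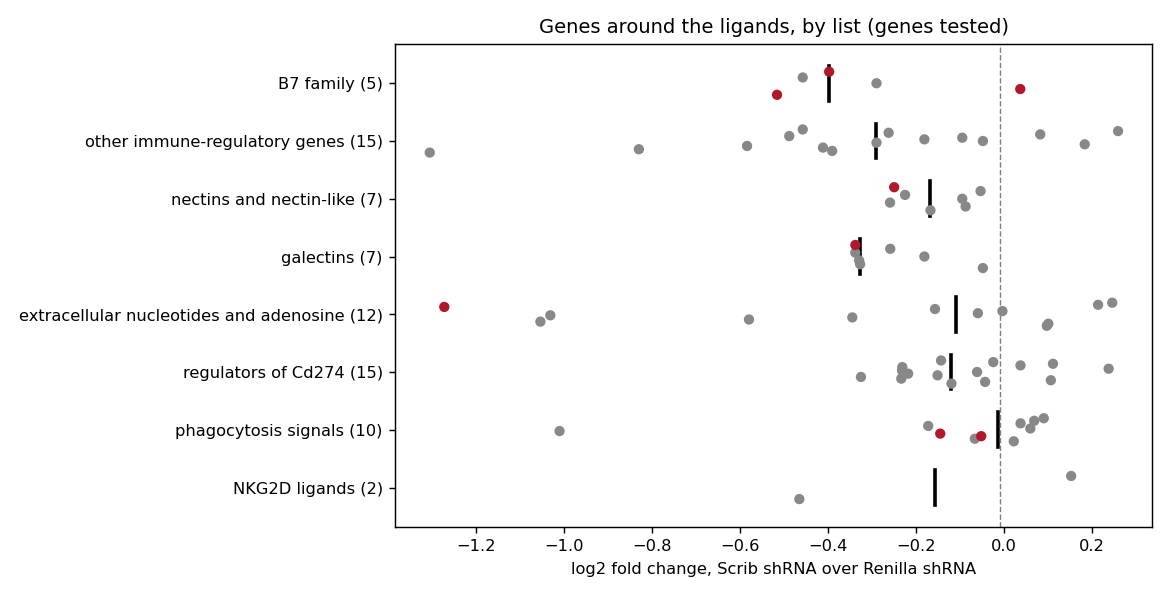
Log2 fold change of the Scrib shRNA over the Renilla shRNA (horizontal axis) of each tested gene in 8 lists (rows, number tested in brackets), with the 8 ligand genes in red, other genes in grey, list medians as black bars and the median of all genes as a dashed line. The B7 family median is -0.40, that of the galectins -0.33 and that of the phagocytosis signals -0.01, and no gene shown passed the test.

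The immune-cell receptors of these ligands were mostly undetected. The list of 10 genes also held Cd160 and Btla, which are known as receptors of a ligand outside the 8. At 0 in all libraries were 6 of the 10, Pdcd1, Siglecg, Cd226, Cd96, Cd160 and Btla, and Cd80, Sirpa and Havcr2 stayed under 1 CPM. Tigit, the inhibitory receptor of Pvr on T and natural killer cells, was the exception, at 14.0, 4.36 and 3.51 CPM in the Scrib shRNA libraries of T91, T113 and T118, against 14.4, 3.42 and 2.42 CPM in their Renilla shRNA libraries. It was highest in T91 with either hairpin and passed the test between lines (adjusted p of 0.00267), but not that of the hairpin (log2 fold change 0.26, SE 0.18, adjusted p of 0.804). Cd3e, a T cell marker, held 1 count in 1 library and 0 in the other 5, and Ptprc, the pan-leukocyte marker, held between 0 and 3.

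For each ligand gene, the most similar profile over the 6 libraries was sought among the 9966 or 9967 other protein-coding genes with an average log2 CPM of at least 2, by Pearson's r of log2 CPM. The libraries of a line share their source, and with so many candidates a high r is common, so these are descriptions. Among the profiles most like that of Vtcn1 was Bmp3 (r = 0.995), and 84 genes had an r over 0.95 with it. Pvr ran closest to Tgif1 (0.995) and Aaed1 (0.993), Cd24a to Ube2g1 (0.994) and Acer3 (0.965), and Cd47 to Atp6ap2 (0.985) and Ntpcr (0.978). For Nt5e they were Cpox (0.986) and Uso1 (0.974), for Lgals9 Slc45a3 (0.989) and Ucp2 (0.987), for Cd274 Kif3b (0.993) and Pde4dip (0.992), and for Cd276 Zfp280c (0.990) and Rnf43 (0.984). None of these genes passed the hairpin test (adjusted p from 0.530 to 0.936 by edgeR).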

How the data were processed

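Messenger RNA of 3 organoid lines was sequenced after each of 2 hairpins. Per the labels' protocols, Trizol and a column kit were used for RNA, and virus carried the hairpins, but the design text names plasmids. Deposited by the authors are estimated counts for Ensembl genes, from Salmon 1.4.0 and GRCm38 per the submitters' processing notes, which also name DESeq 2. For annotation, strand setting and trimming the entry is: not given in the sources used here. Reads of overlapping antisense genes may therefore not be told apart. GENCODE M21 gave symbols for 54131 of 54453 identifiers, with positions and exon lengths.

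Estimated counts were rounded, filtered with filterByExpr (minimum count 10, keeping 14169 genes and at least 99.8% of counts), TMM-scaled and fitted with edgeR 4.0.16 in R 4.3.3 (robust quasi-likelihood, terms for line and hairpin, 2 residual degrees of freedom, two-sided, Benjamini-Hochberg over all genes tested). Pairing comes from the lines: both hairpins went into the same 3, and the deviations of the paired libraries from their group means correlated at 0.621 to 0.666. Since each line was sampled once per hairpin, the hairpin p-values rest on how the hairpin difference varied between these 3 lines, noise included. Variances were moderated over all genes tested (median prior degrees of freedom 4.43). Within-line ratios are log2 CPM differences (prior count 2) and have no test. On simulated data the fit called 85 of 100 genes changed by a log2 of 1 and 97 of 100 changed by 2. It also called 20 of 13699 unchanged genes. The changed genes were all better counted than Cd274 and Nt5e, so the simulation does not cover those 2 genes. The simulation also planted 100 changed genes at each size, whereas 1 gene was called in the data. Its shares therefore do not say how often such a change would pass here. Lrp1, at a log2 fold change of -1.01, did not pass (edgeR adjusted p of 0.693). No 2 libraries agreed within sampling noise (chi-square per degree of freedom of at least 22.5). Alternatives were DESeq2 1.42.0, limma-voom (limma 3.58.1), other scaling, filters and dispersions, a fit without the line term, and leaving out each line. Counting intervals (95%) cover counting error only, and were computed only for Cd274, Vtcn1 and Nt5e, the members below the control in all 3 lines. The members and lists were chosen with earlier results of these data known. Named genes were Scrib, the 8 ligand genes, up to 4 others per list by p, and the 2 most similar profiles of each, of which 1 is not reported here. Other genes, among them Lgals3, Entpd1, Entpd2, Adora1 and the marker genes, were named after their values were seen.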

Additional observations from a re-analysis of the deposited data

How the results depend on the processing

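No ligand gene passed the hairpin test under any of the 10 alternatives. The lowest adjusted p was 0.105, for Pvr by edgeR without T91 (log2 fold change -0.44). Nt5e ran from -1.41 (without T118) to -1.09 (without T113) and Vtcn1 from -0.42 to -0.36. Leaving out 1 line also moved Cd47, from -0.28 (without T91) to -0.0043 (without T113), and Pvr, from -0.44 (without T91) to -0.14 (without T113). Lgals9 moved from -0.55 (without T91) to -0.05 (without T118) and Cd274 from -0.74 (without T113) to -0.32 (without T91). With an average CPM of at least 5, Cd274 and Nt5e were not tested. With 1 line left out, Cd24a ran from -0.12 (without T118) to 0.030 (without T113) and Cd276 from -0.053 (without T118) to 0.15 (without T91), and the cause was not tested. Without the replicate block, Nt5e had a log2 fold change of -1.27 and Vtcn1 of -0.39 (unadjusted p of 0.702), with the count over all genes still 1. The block changed no adjusted call among the 8. At an unadjusted p under 0.05, 1 of the 8 passed without it, and 1.01% of all genes. Without T91 the galectin median, -0.54, was below that of the B7 family, -0.33, as it was without the block (-0.31 and -0.28). Over all genes the hairpin count was 64 without the low-count filter, 63 by DESeq2, 8 by limma-voom, 25 without T118, 9 without T113 and 94 without T91. Scrib passed in each.

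Between lines, 1310 genes were called at an average CPM of at least 5, where fewer were tested, and 1209 to 3305 with 1 line left out. The count among the 8 was 2 without the low-count filter (Pvr, adjusted p of 0.0232; 10.8% of all genes), 3 by DESeq2's likelihood ratio test (Pvr, 0.0353, and Lgals9, 0.0496; 18.7% of all genes), and between 1 and 2 with 1 line left out (Pvr, 0.0141, without T91, with 23% of all genes; Lgals9, 0.00203, without T118, with 11.3%). At 5 to 37 counts per library, depth limits what Cd274 and Nt5e can show.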

Other observations

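Tigit was detected in all 6 libraries, with 333, 134 and 96 counts in the Scrib shRNA libraries of T91, T113 and T118, against 429, 127 and 71 in their Renilla shRNA libraries, although these are epithelial cultures in which T cell and leukocyte markers were at or near 0. No annotated gene overlaps its exons, and 7.58% of the 31-base words of its annotated transcript occur in other genes. The source of these reads was not tested.

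Adora1, an adenosine receptor gene named after its values were seen, held 46, 115 and 8 counts in the Scrib shRNA libraries of T91, T113 and T118, against 29, 207 and 177 in their Renilla shRNA libraries. Within T91 the log2 ratio was 0.95, within T113 -0.57 and within T118 -4.08, and edgeR's value over the lines was -1.05 (SE 1.08, adjusted p of 0.857). With 1 library per hairpin in a line, the difference between lines was not tested.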
